A study of Mus musculus with 20 samples.

Results

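Ftx is a long noncoding RNA gene of the X-inactivation centre of the mouse X chromosome, and one of its introns holds the hairpins of miR-421, miR-374b and miR-374c. The mature miRNAs of this cluster were followed here in the livers of 5 PiZ mice and 5 wild-type (WT) mice. They were found by name, as every listed row of miR-421, miR-374b, miR-374c or miR-545 on either arm, and 5 of the 1509 miRNA rows of the series qualified: mmu-miR-421-3p (miR-421-3p below, and likewise for the others), miR-421-5p, miR-374b-5p, miR-374c-5p and miR-374c-3p. Of these, 3 had any read and 2, miR-421-3p and miR-374b-5p, were abundant enough to be tested. No row carried the name of miR-545 or of miR-374b-3p. The cluster was selected on the difference of miR-421-3p between PiZ and WT liver in these same libraries, so the PiZ and WT values of its members are given as a description. No p-value of that contrast is given for them, and where a member passed or missed the threshold this is stated only to show how the selection came about and what it depends on.

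All mice were C57BL/6 and 6 weeks old. The PiZ transgene encodes human alpha-1 antitrypsin with the Z mutation, a form of this liver-made protease inhibitor that folds poorly and builds up inside hepatocytes. WT mice are the mice labelled as wild type. The sources used here give neither the promoter that drives the transgene nor the sex of the mice, which bears on an X-linked gene. Each liver gave 1 small RNA library, sequenced in 2 technical runs that were summed, so the mouse is the replicate. The mice are numbered 1 to 5 within a genotype, and the numbers only name them.

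A miRNA is cut from a hairpin transcript, and either arm of the hairpin (5p or 3p) can give the mature strand that is loaded into Argonaute. The bases at positions 2 to 8 of the mature strand, its seed, lead target recognition. Ftx takes its name from its place upstream of Xist, the RNA that coats the inactive X chromosome, and in mouse cells it is known as an activator of Xist. In human cells miR-421 is known to target the DNA damage kinase ATM. Small RNA libraries do not measure the Ftx transcript itself.

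In RefSeq on GRCm38.p6 the Mir421 hairpin lies at chrX:103572921-103572996 (minus strand, 76 bases) and the Mir374b hairpin at chrX:103573060-103573154 (minus strand, 95 bases), with 63 bases between them. Ftx spans chrX:103560910-103623754 on the same strand, and Xist lies at chrX:103460373-103483233. The Mir374b, Mir374c and Mir421 hairpins begin 50600, 50621 and 50758 bases from the start of Ftx. Of 12 annotated Ftx transcripts 8 run across all 3 hairpins, and in 0 of the 12 does an exon overlap one, so the hairpins are intronic. The Mir374c hairpin, at chrX:103573085-103573133 (plus strand, 49 bases), is annotated inside the Mir374b hairpin on the opposite strand.

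**Figure D1:**
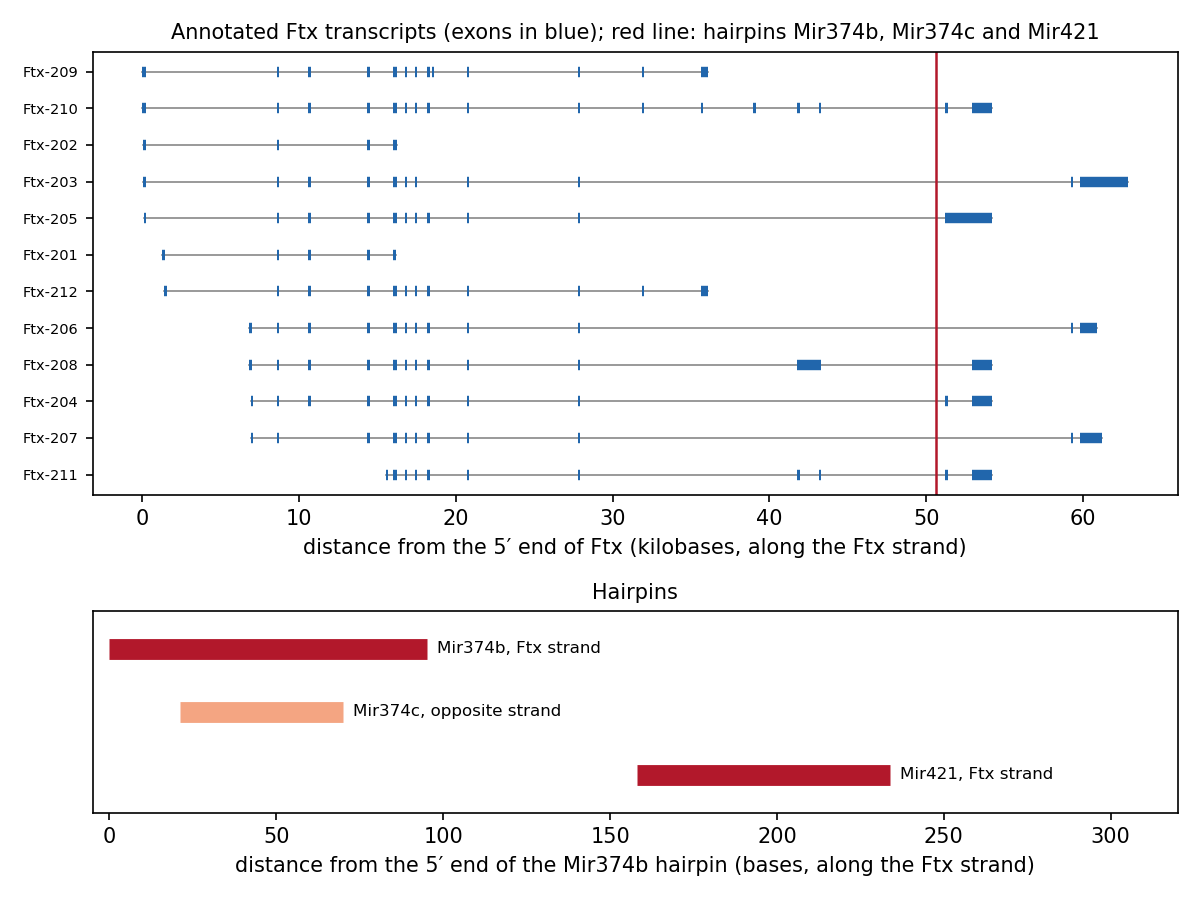
Upper panel: the 12 annotated Ftx transcripts, with exons as blue blocks and introns as grey lines, against distance from the 5′ end of Ftx in kilobases; the red line marks the hairpins and crosses 8 of the transcripts, each in an intron. Lower panel: the 3 hairpins against distance in bases from the 5′ end of Mir374b, with Mir374c inside Mir374b on the opposite strand and Mir421 following after a gap of 63 bases.

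The sequences below, from RefSeq, show how the members differ and where they coincide. In the Mir421 hairpin the capitals mark the 5p arm, and in the Mir374b hairpin they mark both mature arms.
Mir421 hairpin: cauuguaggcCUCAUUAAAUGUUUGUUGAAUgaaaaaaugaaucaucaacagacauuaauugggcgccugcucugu
Mir374b hairpin: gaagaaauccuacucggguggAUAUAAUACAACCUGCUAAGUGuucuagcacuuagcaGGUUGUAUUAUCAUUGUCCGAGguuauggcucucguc
In the mature strands the capitals mark the seed.
miR-421-5p: cUCAUUAAauguuuguugaau
miR-374b-5p: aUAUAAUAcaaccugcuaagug
miR-374b-3p: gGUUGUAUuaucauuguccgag
miR-374c-5p: aUAAUACAaccugcuaagug
miR-374c-3p: aCUUAGCAgguuguauuau
These 5 seeds all differ, and 0 of them is shared with another of the 1679 mature mouse miRNA entries searched. The mature sequence of miR-421-3p is absent from the reference used here, so neither it nor its seed is shown or was searched. The 20 bases of miR-374c-5p are the same as bases 3 to 22 of miR-374b-5p. Its shorter 5′ end moves the seed by the same offset, so that the pair differ in seed while sharing nearly their whole length. The 19 bases of miR-374c-3p occur at bases 51 to 69 of the Mir374b hairpin, and the whole Mir374c hairpin is the reverse complement of bases 22 to 70 of the Mir374b hairpin. A read of either Mir374c arm therefore matches the Mir374b hairpin as well, and the sources used here do not say how such reads were assigned. Counts of miR-374b-5p and of the miR-374c arms are uncertain in that respect.

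Library totals ran from 2433273 to 10780801 reads in PiZ mice and from 1307857 to 10012788 reads in WT mice. Levels are given as CPM, or reads for every 1000000 in a library after TMM adjustment of library sizes, and 1 read was worth between 0.0887 CPM in PiZ mouse 4 and 0.715 CPM in WT mouse 1. The files came with a longer list of 1399 miRNAs or a shorter list of 990. The longer list came with PiZ mice 1 and 2 and WT mice 1 to 3, at most 2507519 reads each, and the shorter with PiZ mice 3 to 5 and WT mice 4 and 5, at least 7043905 reads each, so list and depth cannot be told apart. The 6 hepatocyte markers, arms of miR-122, miR-192 and miR-148a, summed to between 208146 and 344182 CPM in PiZ and between 79920 and 288731 CPM in WT liver, above every other marker list. WT mice 1 and 3, the shallowest libraries, and PiZ mouse 5 stood apart from their groups in earlier results of these data, and fold changes without them are given for miR-421-3p, miR-374b-5p, and the X-linked and most similar miRNAs named. The marker lists are given with all mice.

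mmu-miR-421-3p had the most reads of the listed cluster members, and it was higher in every PiZ liver than in any WT liver. It had 173, 180, 775, 990 and 551 reads in PiZ mice 1 to 5, against 47, 86, 68, 279 and 472 reads in WT mice 1 to 5. Scaled to depth, these were 70.8, 70.9, 77.6, 87.9 and 65.9 CPM in PiZ mice, against 33.6, 44.9, 38.1, 42.3 and 51.2 CPM in WT mice. PiZ mouse 4 was the highest and PiZ mouse 5 the lowest of its group, WT mouse 5 was the highest of the WT mice, and the groups did not overlap. The means were 74.6 ± 8.49 CPM for PiZ and 42.0 ± 6.69 CPM for WT mice (SD, n = 5 each). In the edgeR fit over 336 miRNAs the log2 fold change was 0.79 with a standard error of 0.19, a fold of 1.73. Without TMM adjustment the groups also did not overlap, with 56.4 to 91.8 CPM in PiZ livers and 35.9 to 47.1 CPM in WT livers.

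**Figure D2:**
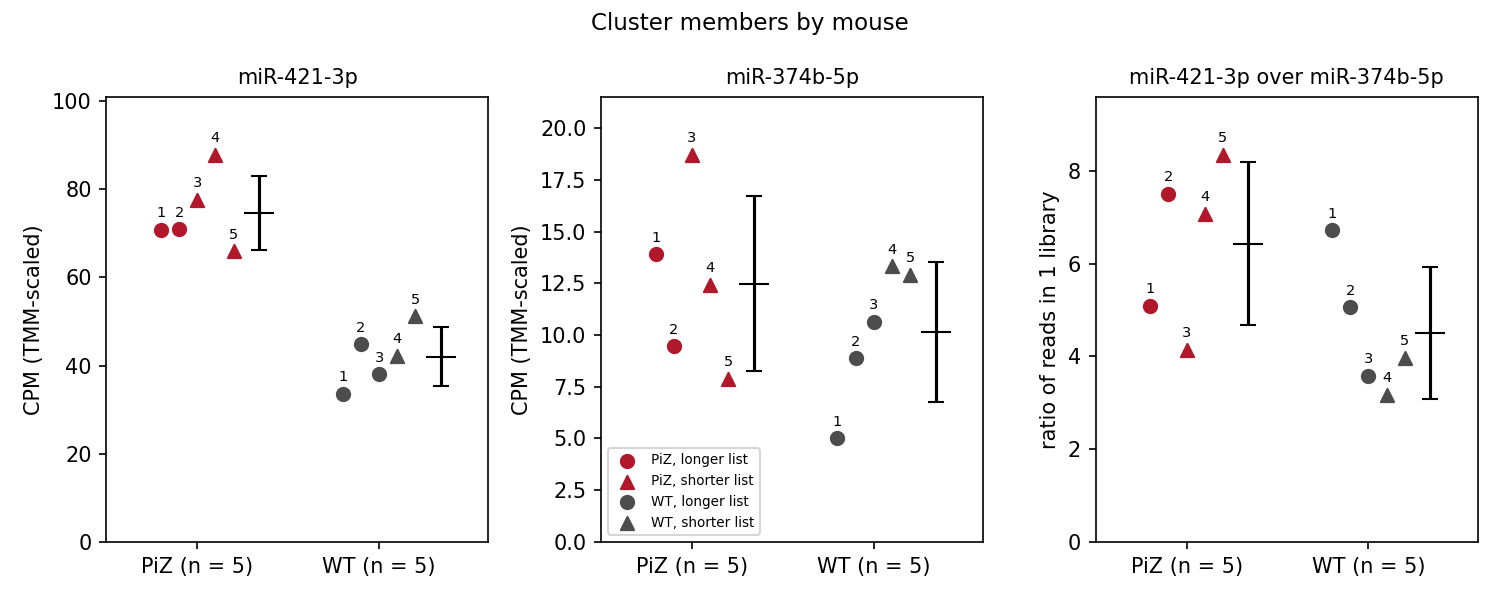
Levels in CPM of miR-421-3p (left) and miR-374b-5p (middle), and the ratio of their reads within a library (right), with 1 point per mouse, numbered, PiZ in red and WT in grey; circles are libraries with the longer list, triangles those with the shorter list, and bars give the mean and SD of 5 mice. The 5 PiZ mice sit between 65.9 and 87.9 CPM for miR-421-3p, above the WT mice at 33.6 to 51.2 CPM, while the groups overlap in the other panels.

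At an adjusted p under 0.05 (edgeR quasi-likelihood test, Benjamini-Hochberg), 31 of the 336 tested miRNAs (9.23%) passed, 28 higher (8.33%) and 3 lower (0.893%) in PiZ liver, and miR-421-3p was among the 28. Upper-quartile scaling gave 22 higher and 6 lower, with miR-421-3p not among them. In 22 of the 336 (6.55%) every PiZ mouse lay above every WT mouse. Because the cluster was chosen by this contrast, nothing is read from these shares. The log2 fold change of miR-421-3p lay between 0.54 and 0.91 under 22 other ways of processing, and it passed in 10 of them. All 22 use the libraries and the contrast that chose it, so they show how the value depends on the processing and are no support for it. Without WT mice 1 and 3 the value was 0.66, and it did not pass, in a fit where 0 of 410 miRNAs passed. Leaving out any 1 of PiZ mice 1 and 2 or WT mice 1 to 5 ended the call, and the plot of alternatives shows each value.

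**Figure D3:**
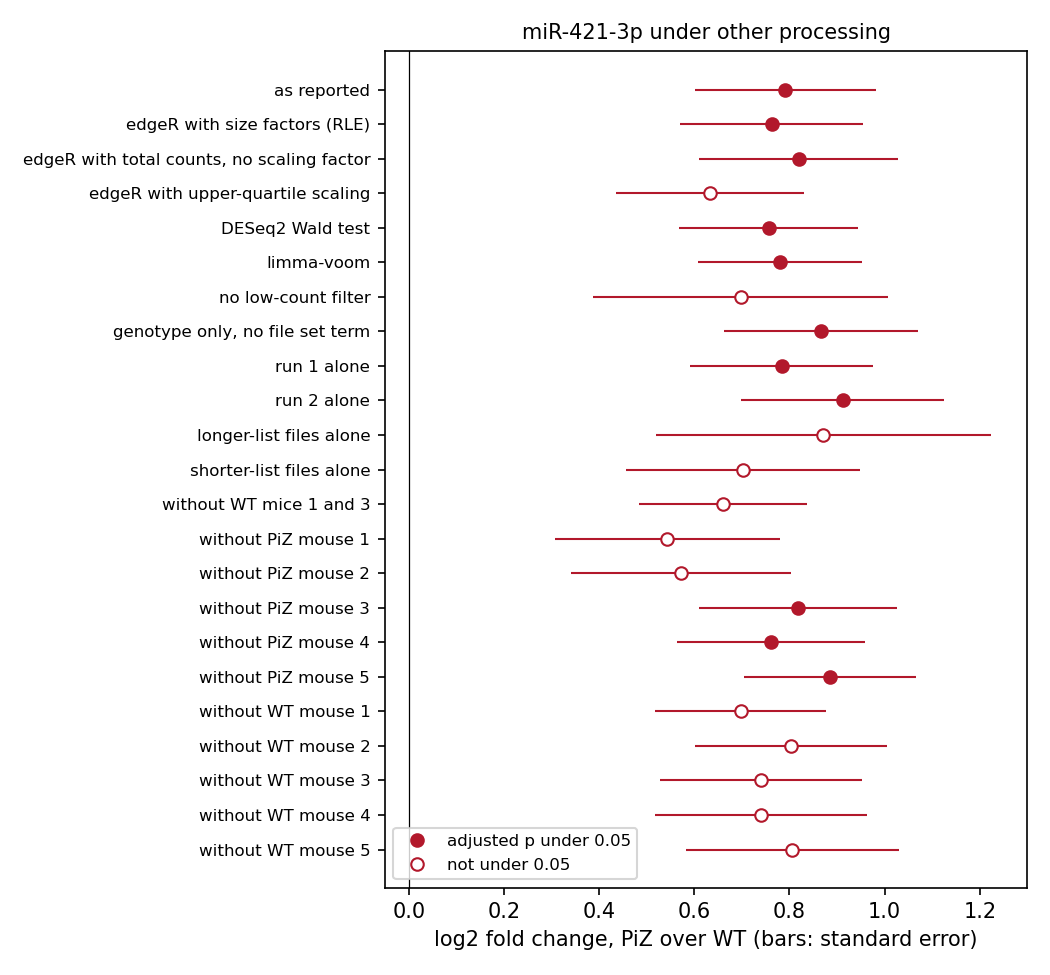
Log2 fold change of miR-421-3p between PiZ and WT liver, with its standard error as a bar, under the processing used here (top) and 22 alternatives; filled points passed an adjusted p under 0.05. The 22 alternatives lie between 0.54 and 0.91, and 10 of them passed.

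miR-421-3p varied little among mice of a genotype. Its coefficient of variation was 11.4% in PiZ and 15.9% in WT liver. On the log2 CPM scale the SD within genotypes was 0.20, number 9 from the smallest of 336 tested miRNAs, against a median of 0.52 for all tested. Among the 28 miRNAs that passed in the direction of PiZ it had the smallest spread, against a median of 1.05, and also the smallest log2 fold change, against a median of 2.86 and a highest value of 8.02. Passing depends on the fold change relative to the spread, so a miRNA with a small fold change could be among the 28 only with a small spread. It ranked 138th of 336 by mean CPM. Between the 2 technical runs of a library its CPM ratio lay between 0.907 and 1.48, with a median of 1.00.

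PiZ mouse 5 lay nearer to the WT mean than the other PiZ mice did for many of the 28 miRNAs. On the log2 CPM scale PiZ mice 1 to 4 averaged 0.87 above the WT mean for miR-421-3p and PiZ mouse 5 was 0.66 above it. PiZ mouse 5 thus stood at 75.5% of the way between the WT mean and the mean of the other PiZ mice. The corresponding positions of the 28 miRNAs had a median of 25.8% and ran from -18.8% to 89.6%, and miR-421-3p ranked at number 3, after miR-130b-3p at 89.6% and miR-295-3p at 84.2%. As a distance rather than a share, 16 of the 28 had PiZ mouse 5 farther above the WT mean than miR-421-3p, whose fold change was the smallest of the 28. In 12 of the 28 PiZ mouse 5 was above every WT mouse. These positions come from the contrast that chose the 28 and are a description of 1 mouse. Without PiZ mouse 5 the log2 fold change of miR-421-3p was 0.89.

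**Figure D4:**
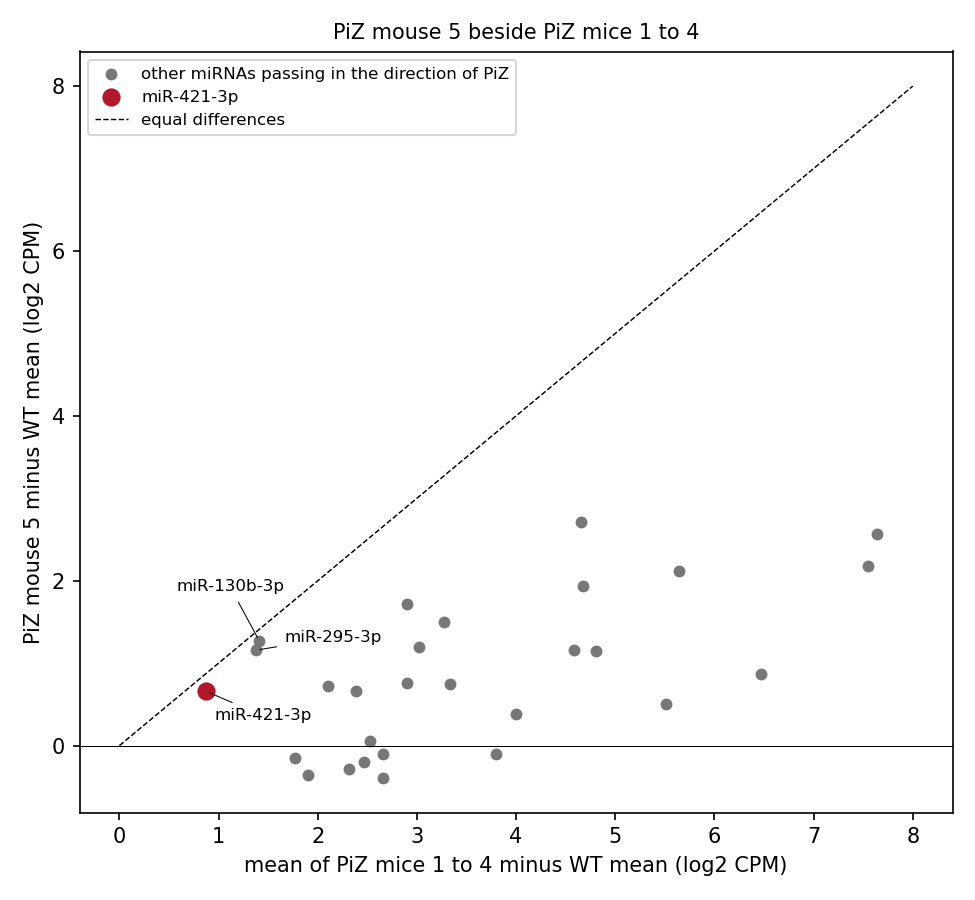
Each point is 1 of the 28 miRNAs that passed in the direction of PiZ, with the difference between the mean of PiZ mice 1 to 4 and the WT mean on the x axis and the difference between PiZ mouse 5 and the WT mean on the y axis, both in log2 CPM. miR-421-3p, in red at 0.87 and 0.66, lies near the dashed line of equal differences, while most points lie far below it.

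Within the file sets, miR-421-3p had these levels. Among libraries with the longer list it averaged 70.9 CPM in PiZ liver (n = 2) and 38.9 CPM in WT liver (n = 3), and among those with the shorter list 77.1 CPM in PiZ liver (n = 3) and 46.8 CPM in WT liver (n = 2). Since the groups do not overlap over all mice, they cannot overlap within a set, and nothing is read from that. With the longer list both PiZ libraries, at 2433273 and 2507519 reads, were deeper than every WT library, at 1307857 to 2041679 reads. Genotype and depth therefore cannot be told apart within that set. With the shorter list the depths of the genotypes overlapped. The shorter-list libraries exceeded the longer-list libraries by 0.19 on the log2 scale (SE 0.19, edgeR adjusted p = 0.854), in a fit where 2 of 336 miRNAs (0.595%) passed. For this file set term 31 miRNAs had an unadjusted p under 0.05 in edgeR, and DESeq2 called 9 of 336. The genotype difference itself was 0.19 smaller in the shorter-list libraries, an interaction of -0.19 (SE 0.39, edgeR adjusted p = 0.916). In that fit 0 of 372 miRNAs (0%) passed, with 16 at an unadjusted p under 0.05, and DESeq2 also called 0.

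The opposite arm of the miR-421 hairpin was nearly absent. miR-421-5p, the strand shown above with the seed UCAUUAA, had 2, 0, 0, 6 and 2 reads in PiZ mice 1 to 5, against 0, 0, 0, 3 and 3 reads in WT mice 1 to 5. Of the reads of both arms, it made up 10 of 2679 or 0.373% in PiZ liver (exact 95% interval 0.179% to 0.685%) and 6 of 958 or 0.626% in WT liver (0.230% to 1.36%). The intervals overlap, and over all mice the share was 0.440%. Intervals here cover counting error only, since reads are not independent molecules. Libraries without a miR-421-5p read allow up to 0.300 CPM in PiZ mouse 3 and 2.15 CPM in WT mouse 1, the level of 3 reads. The arm was too low to be tested between genotypes.

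miR-374b-5p, the neighbour 63 bases away on the same strand, did not separate the genotypes. It had 34, 24, 187, 140 and 66 reads in PiZ mice 1 to 5, against 7, 17, 19, 88 and 119 reads in WT mice 1 to 5. This came to 13.9, 9.46, 18.7, 12.4 and 7.89 CPM in PiZ mice, against 5.01, 8.87, 10.6, 13.3 and 12.9 CPM in WT mice. PiZ mouse 3 was the highest of all and WT mouse 1, with 7 reads, the lowest. PiZ mouse 5 lay below 4 of the WT mice, and 2 of 5 PiZ mice lay above every WT mouse. The means were 12.5 ± 4.22 CPM for PiZ and 10.2 ± 3.40 CPM for WT mice (SD, n = 5 each), with a log2 fold change of 0.22 and a standard error of 0.31, a fold of 1.17. It did not pass.

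The sign of miR-374b-5p turned without PiZ mouse 1 and in the shorter-list libraries alone. Its log2 fold change was -0.17 without PiZ mouse 1 and -0.017 in the shorter-list libraries alone. Leaving out PiZ mouse 1 also moved the tested miRNAs by a median of -0.22, so the turn is not particular to miR-374b-5p. It was 0.08 without WT mice 1 and 3 and 0.40 without PiZ mouse 5. Among the longer-list libraries it averaged 11.7 CPM in PiZ liver (n = 2) and 8.17 CPM in WT liver (n = 3), and among the shorter-list libraries 13.0 CPM in PiZ liver (n = 3) and 13.1 CPM in WT liver (n = 2). The shorter-list libraries exceeded the longer-list libraries by 0.41 on the log2 scale (SE 0.31, edgeR adjusted p = 0.756), and the interaction was -0.57 (SE 0.65, edgeR adjusted p = 0.873). Its spread within genotypes, an SD of 0.51 on the log2 CPM scale, was close to the median of all tested, and its CPM ratio between technical runs reached from 0.648 to 1.67. It ranked 212th of 336 by mean CPM.

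Within a library, miR-421-3p outnumbered miR-374b-5p in all 10 mice. The ratio of their reads was 5.09, 7.50, 4.14, 7.07 and 8.35 in PiZ mice 1 to 5, against 6.71, 5.06, 3.58, 3.17 and 3.97 in WT mice 1 to 5. The means were 6.43 ± 1.75 in PiZ liver and 4.50 ± 1.42 in WT liver (SD, n = 5 each), and the groups overlapped. The lowest PiZ ratio, of mouse 3, fell below those of WT mice 1 and 2, and the highest WT ratio, of mouse 1, rests on 7 reads of miR-374b-5p. A ratio of 2 miRNAs in 1 library does not depend on scaling, but it does depend on how well each strand is captured and is not a ratio of molecules.

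The miR-374c arms appeared only in the longer list, and each had 0 reads in PiZ mice 1 and 2 and in WT mice 1 to 3. At these depths 3 reads correspond to 1.18 to 1.23 CPM in the PiZ mice and 1.57 to 2.15 CPM in the WT mice. A count of 0 was common in that list, where 722 of 1399 miRNAs had no read in any of its 5 mice, against 52 of 990 in the shorter list. Since the 20 bases of miR-374c-5p lie inside miR-374b-5p, a 0 here does not tell whether such a strand was present and counted under the other name.

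The other miRNAs of the X chromosome did not share a direction. Of 80 listed miRNAs placed on X outside the cluster 25 were tested, 0 of them passed as higher and 1 as lower in PiZ liver, beside 8.33% and 0.893% of all tested. At an adjusted p under 0.05 DESeq2 called 1 as higher, miR-223-3p, and limma-voom called 0. At an unadjusted p under 0.05, 3 of the 25 were higher in edgeR, 2 in DESeq2 and 3 in limma-voom. Their log2 fold changes were positive in 11 and negative in 14, with a median of -0.06, against a median of 0.07 over all 336 tested. These are rows and not separate genes, since both arms of some hairpins are among them. Both arms of miR-98 and of miR-322 were positive, and both of miR-221 and of miR-361 were negative. The arms of miR-362 and of miR-676 had opposite signs. Whether the direction goes by gene or cluster was not tested. In 3 of the 25, miR-98-5p, miR-223-3p and miR-322-5p, every PiZ mouse lay above every WT mouse, as in 6.55% of all tested, and in 1, miR-871-3p, every PiZ mouse lay below, a pattern found in 2.38% of all tested.

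**Figure D5:**
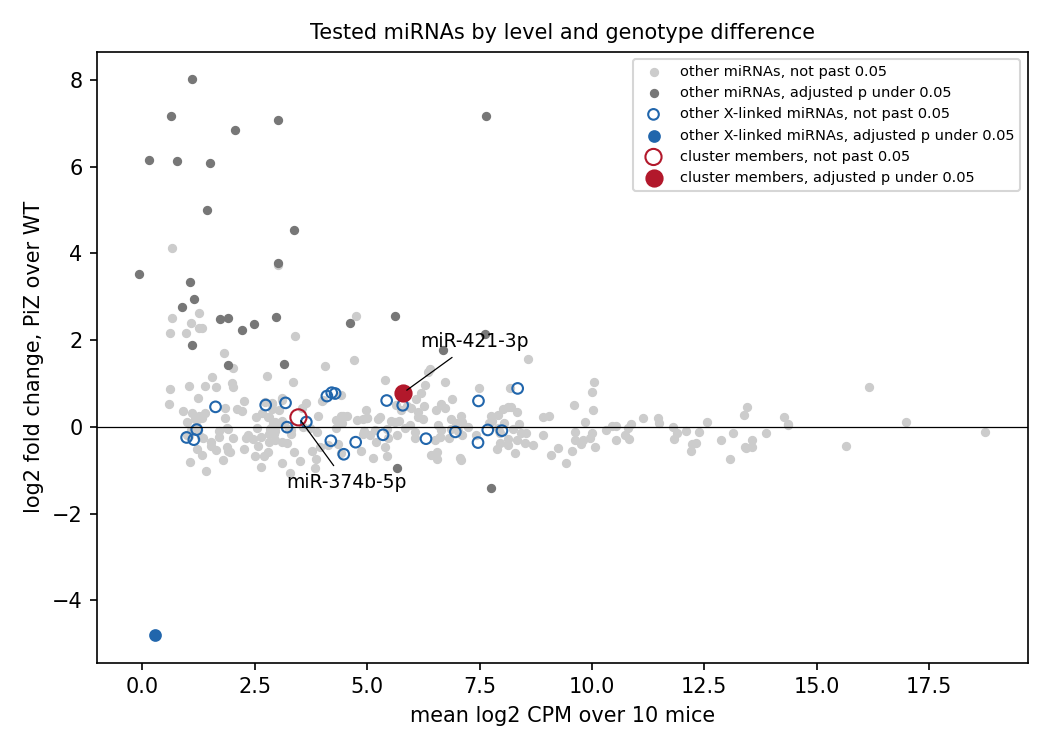
Log2 fold change of PiZ over WT liver against mean log2 CPM over 10 mice for the 336 tested miRNAs, with the cluster members in red and the other 25 X-linked miRNAs in blue; filled red and blue and dark grey points passed an adjusted p under 0.05. miR-421-3p lies at 0.79 and miR-374b-5p at 0.22, and the other X-linked miRNAs lie on both sides of 0.

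With all mice, the 5 most abundant of these X-linked miRNAs were spread over both signs. miR-98-5p, a member of the let-7 family, averaged 478 ± 49.8 CPM in PiZ mice against 251 ± 123 CPM in WT mice (SD, n = 5 each), with a log2 fold change of 0.89 (SE 0.29, edgeR adjusted p = 0.0894). Its WT values were lowest in the shallow libraries, at 102 CPM in mouse 1 and 141.1 CPM in mouse 3, while WT mice 2, 4 and 5 had 288 to 365 CPM. miR-322-5p, the mouse counterpart of human miR-424, averaged 233 ± 20.6 CPM in PiZ mice against 148.3 ± 62.8 CPM in WT mice (SD, n = 5 each), with 0.60 (SE 0.26, edgeR adjusted p = 0.186). miR-532-5p, miR-351-5p and miR-221-3p had log2 fold changes of -0.09, -0.07 and -0.36, and none of the 5 passed. Without WT mice 1 and 3 the log2 fold change of miR-98-5p was 0.48, that of miR-322-5p 0.24 and that of miR-221-3p -0.13. Those of miR-532-5p and miR-351-5p turned to 0.08 and 0.28, and 0 of 410 miRNAs passed in that fit. Without PiZ mouse 5 miR-98-5p was at 0.98 and passed. There miR-322-5p, miR-532-5p, miR-351-5p and miR-221-3p were at 0.67, -0.14, -0.11 and -0.44, and none of these passed. miR-871-3p passed as lower, on 2 reads in PiZ and 54 reads in WT mice in all, a ratio of 0.0224 with an exact 95% counting interval of 0.00264 to 0.0849. Its log2 fold change was -4.79 with all mice and -4.85 without WT mice 1 and 3, where 0 of 410 miRNAs passed. Without PiZ mouse 5 it was too low to be tested.

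The tested miRNAs whose levels followed miR-421-3p most closely over the 10 mice were miR-223-3p, miR-200a-3p, miR-141-3p, miR-148b-5p and miR-148a-5p. Likeness was the root mean square difference of log2 CPM after centring each miRNA on its own mean, so a difference between genotypes counts toward it. miR-223-3p, a miRNA of myeloid cells whose gene is also on X, differed by 0.17, against a median of 0.71 and a highest value of 3.27 over 335 miRNAs. It had 26.6, 23.6, 25.4, 28.5 and 26.2 CPM in PiZ mice 1 to 5, against 9.30, 14.6, 11.8, 15.8 and 21.8 CPM in WT mice 1 to 5. As with miR-421-3p, WT mouse 5 was the highest and WT mouse 1 the lowest of the WT mice. These were also the deepest and the shallowest WT library, with 10012788 and 1307857 reads. In order of depth, WT mice 1, 3, 2, 4 and 5, miR-223-3p rose throughout, and miR-421-3p rose except from mouse 2 to mouse 4. Whether the levels follow depth was not tested. For miR-223-3p every PiZ mouse lay above every WT mouse, as in 6.55% of all tested. The same held for miR-200a-3p, miR-141-3p and miR-148a-5p, while for miR-148b-5p 3 PiZ mice lay above every WT mouse. All 5 were picked for a profile like that of miR-421-3p, so nothing is read from these patterns. The log2 fold change of miR-223-3p, 0.77, was 0.55 without WT mice 1 and 3, where 0 of 410 miRNAs passed. Without PiZ mouse 5 it was 0.84 and passed.

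miR-200a-3p and miR-141-3p, epithelial miRNAs with closely related sequences, differed from the profile of miR-421-3p by 0.22 each. Their read counts were equal to each other in 6 of 10 libraries and differed by at most 3 reads in the rest, so they are not 2 separate measurements. miR-200a-3p averaged 20.3 ± 2.06 CPM in PiZ mice against 12.6 ± 3.22 CPM in WT mice (SD, n = 5 each). miR-148b-5p and miR-148a-5p, the 5′ arms of the miR-148b and miR-148a hairpins, differed by 0.29 and 0.30. None of the 5 passed between genotypes in edgeR, with log2 fold changes of 0.52 to 0.77. For the other 4 these were 0.29 to 0.62 without WT mice 1 and 3, where 0 of 410 miRNAs passed. They were 0.50 to 0.69 without PiZ mouse 5, where none of the 4 passed. The genomic neighbour miR-374b-5p ranked 47th of 335, at 0.45. A miRNA at 1 level in every mouse would also have scored 0.45, so by this measure miR-374b-5p was no more like miR-421-3p than a flat profile. It had only 7 to 34 reads in each longer-list library, and counting error adds to its score. Whether the 2 neighbours differ in their genotype difference was not tested.

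Because miR-223-3p, miR-200a-3p and miR-141-3p are also markers of other liver cells, the marker lists are given here in full. The 8 biliary miRNAs, of which 6 were tested, summed to between 182 and 320 CPM in PiZ and between 192.3 and 281 CPM in WT liver, with PiZ mouse 5 the lowest of all and the other 4 PiZ mice above every WT mouse. The 6 immune miRNAs, 4 of them tested, summed to between 401 and 814 CPM in PiZ and between 389 and 1540 CPM in WT liver. miR-142a was meant for this list, but the rows named miR-142-5p and miR-142-3p were not matched and are not in the sums. Their mean log2 CPM was 10.05 and 6.29, so the immune sums leave out an abundant miRNA. With log2 fold changes of 1.03 and 0.96, neither passed. The 7 pancreas miRNAs summed to between 12.2 and 85.4 CPM in PiZ and between 5.74 and 17.2 CPM in WT liver. In that list 2 of 4 tested members were among those that passed as higher, beside 8.33% of all tested. The 2 endothelial miRNAs summed to between 23357 and 28800 CPM in PiZ and between 7897 and 41279 CPM in WT liver, the 8 mesenchymal ones to between 9922 and 14829 CPM in PiZ and between 5814 and 16896 CPM in WT liver, and the 5 erythroid ones to between 311 and 1753 CPM in PiZ and between 260 and 1080 CPM in WT liver. The 4 muscle miRNAs, none of them tested, reached 67.6 CPM in PiZ mice and 2.15 CPM in WT mice. By these sums, 4 PiZ mice lay above every WT mouse for the pancreas list. For the hepatocyte, erythroid and muscle lists 2 PiZ mice did, and for the endothelial, mesenchymal and immune lists 0 did. In the edgeR fit with all mice no tested marker of the hepatocyte, biliary, endothelial, mesenchymal, immune or erythroid lists passed. miR-223-3p, of the immune list, passed in DESeq2 and in edgeR without PiZ mouse 5. No miRNA of these lists was at 0 in every library, and their part in the level of miR-421-3p was not tested. In bulk liver, more cells of a type and more of a miRNA per cell cannot be told apart.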

How the data were processed

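Frozen livers were extracted with the miRNeasy kit and TruSeq small RNA libraries prepared, per the labels' protocols. The authors deposited estimated counts per mature miRNA for each of 20 runs, and the submitters' processing notes name CASAVA. The sources used here do not give the aligner, the miRBase release, the build or the assignment of reads matching several miRNAs.

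Counts of both runs were added per library and rounded, giving 10 libraries of 1307857 to 10780801 reads. The 880 miRNAs listed in every file were used, filterByExpr kept 336, and genotype and file set were fitted with edgeR 4.0.16 (TMM, quasi-likelihood test, Benjamini-Hochberg adjustment, threshold 0.05). The interaction was fitted on 372 miRNAs. The standard error of a log2 fold change is its size over the root of F. Log2 CPM use a prior count of 2. Exact binomial intervals are from scipy 1.17.1 and plots from matplotlib 3.10.9. Sequences and places come from RefSeq on GRCm38.p6, and 98.8% of the 336 tested miRNAs could be placed on a chromosome. The X-linked list leaves out 3 tested miRNAs with loci on X and elsewhere, let-7f-5p, miR-19b-3p and miR-92a-3p. The steps were tested on simulated data.

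The members, lists, rules for naming and alternatives were chosen with earlier results of these data known. The miRNAs named are every member, the 5 with the most similar profile, the 5 most abundant tested X-linked miRNAs and every one of these that passed. miR-130b-3p and miR-295-3p were named after seeing their values, outside this rule. So were the per-mouse values of miR-98-5p and miR-223-3p. Alternatives were other scalings, DESeq2 1.42.0, limma 3.58.1 (voom), no low-count filter, no file set term, single runs, single file sets, and mice left out. Leaving out WT mice 1 and 3 or PiZ mouse 5 for the X-linked and most similar miRNAs was added after seeing the data. The labels give each mouse as a separate animal.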

Additional observations from a re-analysis of the deposited data

Results flagged for a closer look

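miR-871-3p, the X-linked miRNA that passed as lower in PiZ liver, had 2 reads in PiZ mouse 5 and 0 in the other 4 PiZ mice, so the gap from the highest PiZ value to the next was the whole range of the group (a ratio of 1, above Dixon's limit of 0.71 for 5 samples). Of 28 groups of 5 mice examined this way for the named miRNAs 1 was over the limit, and chance would give about 1.4. With 2 reads the value sits below the level of 3 reads in that library.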

How the results depend on the processing

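The log2 fold change of miR-421-3p kept its sign under 22 of 22 alternatives, all on the libraries that chose it, and its call ended under 12. It was 0.63 with upper-quartile scaling, 0.70 with no low-count filter, 0.87 in the longer-list libraries alone, 0.70 in the shorter-list libraries alone and 0.66 without WT mice 1 and 3. In the shorter-list libraries alone and without WT mice 1 and 3, 0 miRNAs passed. Leaving out each mouse gave 0.54 (without PiZ mouse 1) to 0.89 (without PiZ mouse 5), and the call held in 3 of 10 such fits, without PiZ mouse 3, 4 or 5. Upper-quartile scaling moved the tested miRNAs by a median of -0.16 and the lack of a low-count filter by -0.098. Leaving out PiZ mouse 1 or 2 moved them by -0.22 or -0.20. miR-421-3p moved about as far as the median miRNA in each of these fits. Subsets of mice also lower the number of libraries. The cause of the lost calls was not tested.

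miR-374b-5p never passed, and its sign turned in the shorter-list libraries alone (-0.017) and without PiZ mouse 1 (-0.17). Its leave-one-out range ran from -0.17 (without PiZ mouse 1) to 0.40 (without PiZ mouse 5). The highest value among the 22 alternatives was 0.51, in the longer-list libraries alone. Without WT mice 1 and 3, chosen after seeing the data for these, miR-532-5p turned to 0.084 and miR-351-5p to 0.28. The interaction of miR-421-3p turned to 0.032 with total counts and to 0.065 without PiZ mouse 5, in a leave-one-out range of -0.37 to 0.065. The interaction of miR-374b-5p and the file set differences of both kept their sign and did not pass under 12 of 12 alternatives each. The count of 31 miRNAs passing became 50 with DESeq2, 7 with limma-voom, 83 of 852 with no filter, 17 without the file set term and 18 with run 2 alone. It was 0 in edgeR in the shorter-list libraries (55 at an unadjusted p under 0.05) and 0 without WT mice 1 and 3 (104 unadjusted), and leaving out 1 mouse gave 5 (WT mouse 4) to 46 (PiZ mouse 5). The cause was not tested. No paired analysis was possible because the replicate numbers in the labels mark technical runs of each library, which were summed, and the mouse numbers name different animals. Depth limits miR-421-5p and the miR-374c arms, and miR-374b-5p in WT mouse 1.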
